A study of Mus musculus with 12 samples.

Results

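The comparison concerned the adipose tissue of mice fed a high-fat diet for a short time, read only on those high-fat arrays that carried little transcript of the epididymis, the duct beside the testis that the gonadal fat pad of male mice adjoins. All mice were C57Bl/6. All began on standard chow, which supplied 13% of calories as fat; from the age of 6 weeks some received a high-fat diet, which supplied 46%, for 5 or 14 days, and the others stayed on chow. Total RNA of adipose tissue was hybridised to Affymetrix arrays, 4 per group and 12 in all. The depot, the sex, how old the chow mice were when tissue was taken, and whether an array holds 1 animal or a pool are not given in the sources used here, so p-values measure only the spread between these arrays.

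The arrays were chosen by their measured level of Adam7, a membrane protein made in the epididymis, read on its probe set of highest mean. High-fat arrays of either time with Adam7 below 11 on the log2 scale formed the first group, and the 4 chow arrays formed the second. The first group held 4 of the 8 high-fat arrays, namely 5-day array 4 and 14-day arrays 1, 2 and 3. It therefore joins 1 array fed for 5 days with 3 fed for 14 days, and no effect of time can be read from it. The other 4 high-fat arrays, 5-day arrays 1, 2 and 3 and 14-day array 4, were left out of the test, and their values are given beside part of the results.

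Adam7 read 8.23, 7.79, 8.37 and 8.32 in chow arrays 1 to 4 and 7.40, 7.84, 8.12 and 7.95 in 5-day array 4 and 14-day arrays 1, 2 and 3. In the arrays left out it read 13.06, 13.09, 13.29 and 13.89. The highest array below the limit stood at 8.37 and the lowest above it at 13.06, so any limit between these values chooses the same 4 high-fat arrays. Spink8, a protease inhibitor of the epididymis, read 7.12, 7.32, 8.38 and 7.51 in chow, 7.20, 6.85, 8.87 and 7.25 in the high-fat arrays kept, and 14.28 to 14.96 in those left out. Spink8 was thus highest among the 8 arrays in 14-day array 2, and Lcn5, an epididymal lipocalin, stood at 8.78 in chow array 3 against 6.04 to 6.36 in the other 7. The kept arrays were therefore low in epididymal transcripts and not wholly without them. Since these genes chose the arrays, they carry no test.

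**Figure D1:**
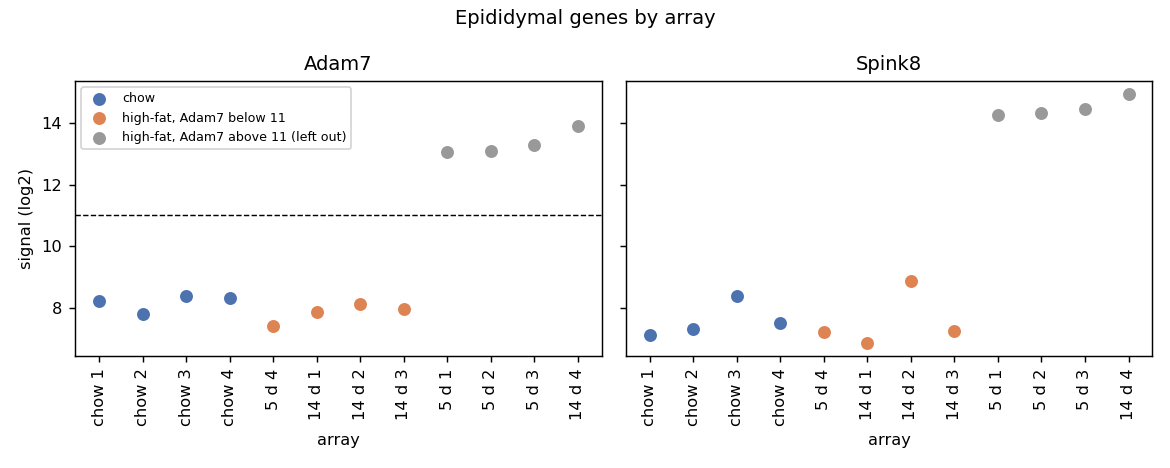
Signal (log2) of Adam7 and Spink8 on each of the 12 arrays, 1 point an array; the dashed line marks the Adam7 limit of 11. The 8 arrays compared stand at or below 8.37 for Adam7, and the 4 high-fat arrays left out stand at or above 13.06.

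Adipose tissue consists of lipid-filled adipocytes held in a collagen-rich matrix, together with progenitor cells, blood vessels, macrophages and mast cells, and in visceral depots a covering layer of mesothelium. When calories exceed need, adipocytes take up fatty acids, esterify them to triglyceride and enlarge, and leptin mRNA increases with adipocyte size. Long-term obesity brings macrophages and inflammatory gene expression into the tissue, and the first days of a high-fat diet come before most of that remodelling.

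The tissue label was checked on adipocyte genes. Adipoq, the adipokine adiponectin, stood between 14.98 and 15.05 on all 8 arrays. Scd1, a stearoyl-CoA desaturase, stood between 15.14 and 15.20. Both lie near the top of a scale whose highest value is 15.50, where differences can be compressed. Ucp1, the uncoupling protein of brown adipocytes, stood between 6.91 and 7.35, under the limit for testing.

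The arrays were not uniform. Correlations between the 8 arrays ran from 0.982 to 0.997 across genes, and 14-day array 2 correlated more with chow (mean r = 0.994, highest 0.997 with chow array 4) than with the other high-fat arrays kept (mean r = 0.988). The difference of 3′ over 5′ probe sets for pyruvate carboxylase, a measure of RNA integrity, was 1.70 to 1.91 in chow and 2.83, 1.96, 2.18 and 1.72 in 5-day array 4 and 14-day arrays 1, 2 and 3. For Gapdh it was 0.06 to 0.13 in chow and 0.27, 0.12, 0.28 and 0.10 in the same high-fat arrays. For actin it was 0.44 to 0.47 in chow and 0.50, 0.46, 0.55 and 0.42. On both of these measures 14-day array 2 was the highest of the 8 arrays. The mean of 12 liver markers was 7.94, 7.81, 11.54 and 9.71 in chow and 12.69, 12.25, 8.60 and 10.97 in the high-fat arrays, so liver transcripts were high in 3 of 4 high-fat arrays and in chow array 3. Fga, the fibrinogen alpha chain made by hepatocytes, spanned 6.30 to 11.39 in chow and 7.98 to 13.21 in the high-fat arrays. The mean of 13 skeletal muscle markers was 12.58 in chow array 3 and 8.25 to 9.32 in the other 7 arrays. The mean of 16 endothelial markers was highest in 5-day array 4, at 11.09, against at most 10.72 elsewhere. Cldn5, an endothelial tight junction protein, read 12.64 there and 11.07 to 11.89 on the others.

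**Figure D2:**
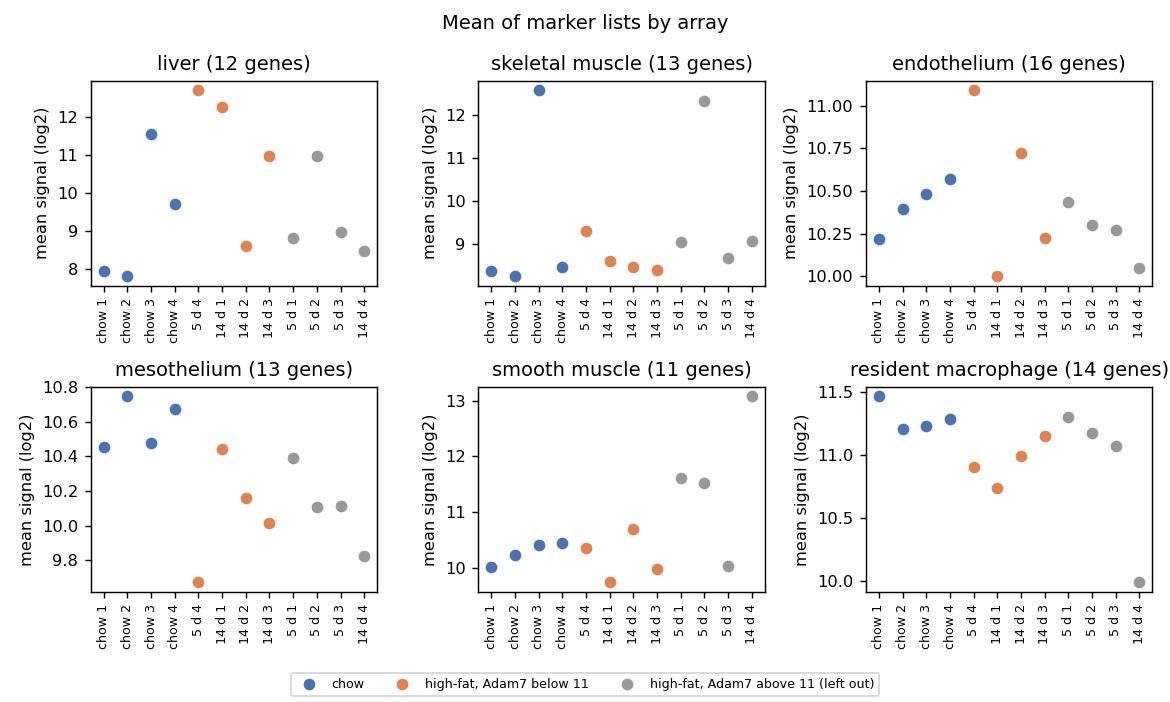
Mean signal (log2) of 6 marker lists on each of the 12 arrays, 1 point an array. Among the 8 arrays compared, liver markers are high in 5-day array 4, 14-day arrays 1 and 3 and chow array 3, and skeletal muscle markers in chow array 3; 5-day array 2, left out, is also high for both (10.96 and 12.32). Mesothelium markers are lower in the 4 high-fat arrays kept than in the chow arrays.

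Differences are given as the 4 high-fat arrays kept minus the 4 chow arrays on the log2 scale, ± SE of the fit. The comparison asked which genes differ after a short high-fat diet once arrays rich in epididymal transcript are set aside. Across 13312 genes, 0 (0%) passed at a limma adjusted p under 0.05, and the lowest adjusted p was 0.132. At an unadjusted p under 0.05 stood 2276 genes (17.1%), of which 1579 were higher (11.9%) and 697 lower (5.24%) in the high-fat arrays. All 4 high-fat arrays lay above all 4 chow arrays for 736 genes (5.53%) and below them for 346 genes (2.6%). Whatever their p, 57.6% of the genes tested were higher in the high-fat arrays. These shares are the background against which each gene group is read.

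That count of 0 turned on 1 array. Without 14-day array 2, 1323 genes were called higher (9.94%) and 315 lower (2.37%), and with arrays weighted by their fit 1906 genes were called in all (14.3%). Leaving out any of the other 7 arrays gave 0 calls. Among the 736 genes with every high-fat array above chow, 14-day array 2 was the high-fat array nearest to chow for 490 (66.6%), and among the 346 with every high-fat array below chow it was nearest for 153 (44.2%). In the fit with all 8 arrays no gene is called, so the values below are described as higher or lower signals with their errors. Because 14-day array 2 was singled out from these same data, counts of called genes without it are descriptive only. Leaving out the high-fat array nearest to chow tends to widen the differences. The counts given below for single lists stand against 9.94% higher and 2.37% lower over all genes in that fit.

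**Figure D3:**
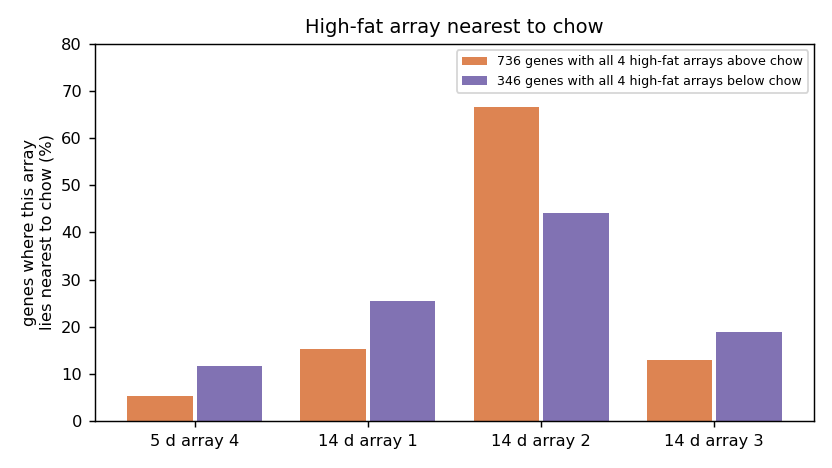
Share (%) of the genes whose groups do not overlap for which each high-fat array lies nearest to chow, for the 736 genes above chow (orange) and the 346 genes below chow (purple). The tallest bars belong to 14-day array 2, at 66.6% and 44.2%.

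Genes of fat storage and fatty acid use had higher signals in the high-fat arrays. Of 17 tested genes of triglyceride assembly and lipolysis, 16 were higher, 6 at an unadjusted p under 0.05, and 5 did not overlap with chow, all of them above. The median difference was 0.13, against 0.02 over all genes. Mgll, the monoglyceride lipase of the last step of lipolysis, read 14.27, 14.22, 14.20 and 14.20 in chow and 14.51, 14.41, 14.36 and 14.44 in the high-fat arrays, a difference of 0.21 ± 0.04 (adjusted p = 0.194). Agpat2, an acyltransferase of triglyceride synthesis whose loss causes lipodystrophy, read 13.38, 12.86, 13.17 and 13.07 in chow and 13.54, 13.48, 13.40 and 13.71 on the high-fat diet, a difference of 0.41 ± 0.11 (adjusted p = 0.198). Aqp7, the glycerol channel of adipocytes, stood at 11.26 to 11.42 in chow and 11.46 to 11.79 in the high-fat arrays. With 14-day array 2 left out, 4 genes of this list were called higher and 0 lower.

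Fatty acid oxidation followed the same direction. Of 21 tested genes 18 were higher, with 11 at an unadjusted p under 0.05, 6 wholly above chow and a median of 0.17. Cpt2, the inner membrane carnitine palmitoyltransferase, read 12.51, 12.33, 12.54 and 12.37 in chow and 12.77, 12.76, 12.59 and 12.74 on the high-fat diet, a difference of 0.28 ± 0.07 (adjusted p = 0.194). Acadl, the long-chain acyl-CoA dehydrogenase, read 12.99, 12.95, 13.03 and 13.01 in chow against 13.40, 13.29, 13.05 and 13.36. In both genes 14-day array 2 was the lowest high-fat array and still above every chow array. Hadh, the next dehydrogenase of the spiral, differed by 0.17 ± 0.04. The fit without 14-day array 2 called 12 genes of the list higher and 0 lower. Acaa1b, a peroxisomal thiolase, had one of the 10 smallest p-values among higher genes: it read 10.97, 10.65, 11.16 and 10.98 in chow and 12.07, 12.01, 11.46 and 11.85 in the high-fat arrays, 1.87-fold (difference 0.91 ± 0.15, adjusted p = 0.133).

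Liver expresses many genes of fatty acid metabolism, and liver markers differed widely between the arrays. In the chow arrays, in order, the liver marker mean was 7.94, 7.81, 11.54 and 9.71. The mean of the triglyceride list was 13.055, 12.94, 12.99 and 12.92. In 14-day array 2 these means were 8.60 and 13.06. Whether liver RNA contributed to the differences was not tested. With the liver marker mean as a covariate, 17 of 21 oxidation genes and 16 of 17 triglyceride genes were higher, with medians of 0.10 and 0.10, and Acaa1b differed by 0.67. Over all genes that covariate left 915 at an unadjusted p under 0.05 and 0 called. In the 4 high-fat arrays left out, compared with the same chow arrays, the medians of the oxidation and triglyceride lists were −0.12 and −0.16. Lower signals there were not particular to these lists. The medians of adipocyte identity and branched-chain amino acid breakdown genes were −0.13 and −0.185, while that of glycolysis genes was 0.10. Acadl stood there at 12.55 to 13.08 and Aqp7 at 11.13 to 11.40, within or below the chow values or only just above them. This opposite direction was not tested, because the choice of arrays used that contrast.

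Fatty acid synthesis did not share the direction: 5 of 17 genes were higher and 12 lower, with a median of −0.13, or −0.04 without 14-day array 2. Fasn, fatty acid synthase, read 14.57, 14.32, 14.32 and 14.07 in chow and 14.30, 13.90, 13.42 and 14.62 on the high-fat diet, a wider spread in the high-fat arrays (SD 0.52) than in chow (SD 0.20) and a difference of −0.26 ± 0.23 (adjusted p = 0.585). Fads1, the delta-5 desaturase, lay below chow in all 4 high-fat arrays, at 10.84 to 11.14 against 11.15 to 11.30. In the arrays left out it stood above chow, at 11.44 to 12.71, a mean difference of 0.57.

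Cholesterol synthesis and uptake genes were mostly higher. Of 20 tested, 18 were higher and 2 lower, with a median of 0.28. At an unadjusted p under 0.05 stood 5 genes, and 2 did not overlap with chow. Hmgcs1, the cytosolic HMG-CoA synthase, read 12.43, 12.05, 12.14 and 12.43 in chow and 12.83, 12.75, 12.72 and 12.61 in the high-fat arrays, a difference of 0.47 ± 0.10 (adjusted p = 0.194). Insig1, the endoplasmic reticulum protein that retains the sterol-sensing SREBP complex, read 10.82, 10.34, 10.62 and 10.55 in chow against 11.17, 10.98, 10.87 and 11.32. Dhcr7, the last reductase of the pathway, read 8.29 to 8.49 in chow and 8.99, 9.09, 8.36 and 9.15 in the high-fat arrays, so that 14-day array 2 alone stood within chow. Msmo1, a sterol methyl oxidase, showed the same pattern, with 9.47 in 14-day array 2 and 9.72 to 10.004 in the others against 9.44 to 9.51 in chow. The median was 0.17 with the liver covariate and 0.17 in the arrays left out, and 7 genes were called higher without 14-day array 2. Leave-one-out medians ran from 0.14, without 14-day array 3, to 0.35, without 14-day array 2. Probe sets of Hmgcs1 ran from 0.05 to 0.65 and those of Msmo1 from 0.08 to 0.30.

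Genes tied to fat pad growth had the highest median of the adipocyte lists, 0.59, with 6 of 6 tested genes higher, 5 at an unadjusted p under 0.05 and 0 free of overlap. Sfrp5, a secreted Wnt inhibitor of adipocytes, read 9.63, 9.57, 9.26 and 10.04 in chow and 10.73, 11.50, 9.87 and 10.46 on the high-fat diet, 2.02-fold (1.02 ± 0.31, adjusted p = 0.209). Mest, an imprinted gene whose adipose mRNA marks expanding fat, read 12.57, 11.70, 11.96 and 12.41 in chow against 13.23, 13.20, 12.30 and 12.77. Lep, leptin, read 12.58, 12.06, 11.81 and 12.41 in chow against 13.01, 12.90, 12.23 and 12.99. Npr3, the natriuretic peptide clearance receptor, read 12.79 to 13.63 in chow and 14.04, 14.02, 13.54 and 13.99. In all 4 genes 14-day array 2 was the lowest high-fat array and lay inside the chow range, while the other 3 lay above every chow array. Without it, 4 of the 6 genes were called higher. The list's median was 0.50 with the liver covariate, 0.44 without chow array 3 and 0.13 in the arrays left out, where Lep stood at 11.56 to 12.70.

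Adipocyte identity genes moved little, with 12 of 16 higher and a median of 0.03, or 0.02 without chow array 4. Slc2a4, the insulin-responsive glucose transporter, differed by 0.21 ± 0.11 (adjusted p = 0.363), and Plin4, a lipid droplet protein, lay just above chow in all 4 arrays (14.81 to 14.97 against 14.73 to 14.79). Insulin signalling genes had a median of 0.04, with 13 of 16 higher, or 0.09 without chow array 3. Grb14, an adaptor that inhibits the insulin receptor, read 9.84 to 10.41 in chow and 10.29 to 10.88 on the high-fat diet. Respiratory chain genes were higher in 28 of 31 cases, but by a median of only 0.09, and 1 did not overlap. Without 14-day array 2 that median was 0.14, and without 14-day array 3 it was 0.06. Ndufv1, a flavoprotein subunit of complex I, differed by 0.23 ± 0.07 (adjusted p = 0.206). Fabp5, a fatty acid binding protein shared by adipocytes and lipid-laden macrophages, read 13.38, 13.19, 13.20 and 13.36 in chow and 13.87, 13.87, 13.58 and 14.09 in the high-fat arrays, 1.48-fold (0.57 ± 0.10, adjusted p = 0.175). Klb, the co-receptor for FGF21, read 9.45 to 9.84 in chow and 10.71, 10.19, 10.34 and 10.49, 1.67-fold (0.74 ± 0.12, adjusted p = 0.133). In the arrays left out Klb stood at 9.06 to 10.03, with a mean difference from chow of 0.01. Other probe sets of Klb and Grb14 differed by 0.18 and 0.08, and those of Slc2a4 by as little as 0.03.

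**Figure D4:**
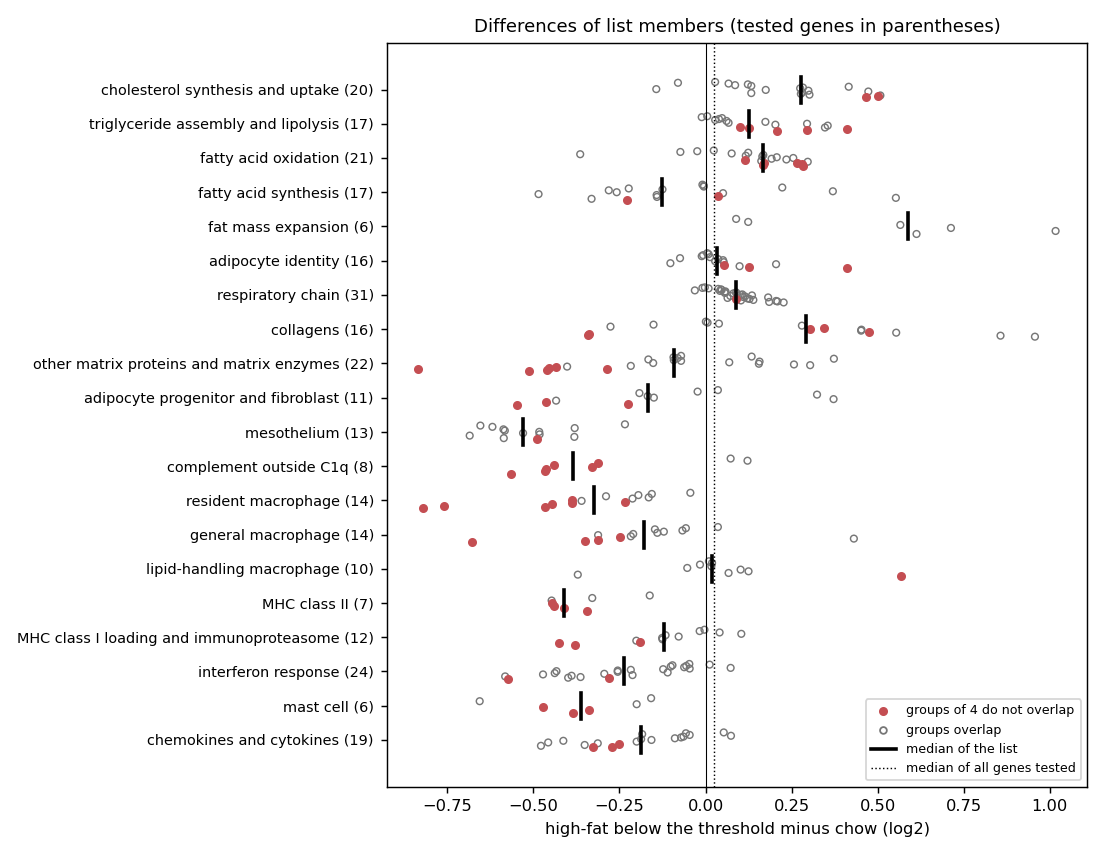
Difference (log2, high-fat arrays kept minus chow) of each tested gene in 20 gene lists, 1 point a gene; filled points are genes whose 4 high-fat and 4 chow arrays do not overlap, bars are list medians and the dotted line is the median of all genes (0.02). Lists of fat use, cholesterol, fat mass expansion and collagens lie mostly to the right, and mesothelium, macrophage, complement, MHC class II, mast cell and interferon lists mostly to the left.

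Matrix genes were examined as collagens and as other matrix genes, and no test compared these lists. Of 16 collagens 12 were higher and 4 lower, with a median of 0.29. At an unadjusted p under 0.05 stood 8 higher and 2 lower, and 3 lay wholly above and 2 wholly below chow. Col15a1, a basement membrane collagen, read 11.81, 11.41, 11.11 and 11.30 in chow and 12.44, 12.52, 11.73 and 12.76 on the high-fat diet, 1.94-fold (0.96 ± 0.22, adjusted p = 0.194). Col5a3, a fibrillar chain, read 11.79 to 12.38 in chow and 13.09, 12.92, 12.33 and 13.38, while its other probe set differed by 0.04. The collagens wholly above chow were Col4a1 and Col4a2, which form the collagen IV network of basement membranes, and Col5a2, named here after their values were seen. Col4a2 read 12.96 to 13.17 in chow and 13.98, 13.34, 13.29 and 13.64, with 5-day array 4 highest in all 3. Without that array the median of the list was 0.18, and in the arrays left out it was 0.01. The collagens wholly below chow were Col1a2, a chain of the main fibrillar collagen, and Col14a1, a fibril-associated collagen. Col1a2 read 13.29, 13.49, 13.27 and 13.50 in chow and 13.22, 12.88, 13.13 and 12.96 in the high-fat arrays (−0.34 ± 0.09, adjusted p = 0.195), and another of its probe sets differed by 0.04.

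Non-collagen matrix proteins and matrix enzymes were lower in 15 of 22 cases, with a median of −0.09, or −0.14 without chow array 3. At an unadjusted p under 0.05 stood 8 lower and 0 higher, and 6 lay wholly below chow. Fbln1, the matrix glycoprotein fibulin 1, read 10.56, 10.68, 10.53 and 10.48 in chow and 9.15, 9.93, 9.62 and 9.64 on the high-fat diet, a 1.97-fold lower signal (−0.98 ± 0.15, adjusted p = 0.132). Fmod, the small leucine-rich proteoglycan fibromodulin, read 11.16, 11.47, 11.10 and 11.15 in chow against 9.996, 10.70, 10.47 and 10.37 (−0.83 ± 0.15, adjusted p = 0.159). Podn and Dcn, of the same family, also lay wholly below chow. Podn read 12.06, 11.96, 12.01 and 11.95 against 11.36, 11.58, 11.62 and 11.37, and Dcn, decorin, read 14.67 to 14.74 against 14.32 to 14.62. Timp2, an inhibitor of matrix metalloproteinases, stood at 13.43 to 13.63 in chow and 12.95 to 13.29. Mmp23, a membrane metalloproteinase, stood at 10.18 to 10.31 and 9.70 to 9.88, a difference of −0.46 ± 0.06 (adjusted p = 0.132). The fit without 14-day array 2 called 6 genes of the list lower and 0 higher. Other probe sets of Fbln1, Timp2 and Mmp23 differed by as little as −0.14, −0.04 and −0.25. The arrays left out stood at 11.09 to 11.52 for Podn and 9.96 to 10.74 for Fmod.

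Progenitor and fibroblast genes were lower in 8 of 11 cases, with a median of −0.17, 4 lower and 1 higher at an unadjusted p under 0.05 and 3 wholly below chow. Pdgfra, the receptor that marks adipocyte progenitors, read 11.23, 11.60, 11.47 and 11.59 in chow and 10.84, 10.90, 11.22 and 10.74 in the high-fat arrays (−0.55 ± 0.12, adjusted p = 0.194), with another probe set at −0.11. Dpp4, a peptidase on early progenitors, read 9.85 to 10.10 in chow and 9.23 to 9.84. The higher gene was Dpt, the matrix protein dermatopontin, named after its values were seen, with 13.43, 13.23, 13.09 and 13.42 in chow and 13.92, 13.55, 13.39 and 13.79 (0.37 ± 0.12, adjusted p = 0.218). Osr1, a transcription factor of mesenchymal progenitors that is not on the list but was among the 10 lower genes of smallest p, read 10.48, 10.77, 10.83 and 10.82 in chow against 9.91, 10.27, 9.97 and 9.85, a 1.66-fold lower signal (−0.73 ± 0.11, adjusted p = 0.132). In bulk tissue fewer cells of a type and less RNA per cell cannot be told apart, here and for each cell type below.

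Mesothelial markers were lower in 13 of 13 cases, by a median of −0.53. At an unadjusted p under 0.05 stood 9, while only 1 gene lay wholly below chow. The list mean was 10.46, 10.75, 10.48 and 10.68 in chow and 9.67, 10.44, 10.16 and 10.02 in 5-day array 4 and 14-day arrays 1, 2 and 3. Wt1, the transcription factor of the mesothelium, read 9.84, 9.87, 9.90 and 9.97 in chow and 9.06, 9.63, 9.50 and 9.45 in the high-fat arrays (−0.49 ± 0.11, adjusted p = 0.194). Upk3b, an uroplakin of mesothelial surfaces, read 12.11 to 12.60 in chow and 11.32, 12.22, 11.65 and 11.90, and Rspo1, a Wnt agonist, 10.54 to 11.05 and 9.58, 10.43, 10.68 and 10.05. Leave-one-out medians ran from −0.66 to −0.38, the latter without 5-day array 4. The list's median was −0.47 with the liver covariate and −0.80 in the arrays left out, where Wt1 stood at 8.56 to 9.28. Adipocyte identity genes were also lower in the arrays left out, with a median of −0.13.

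Macrophage genes were examined in 3 classes, and no test compared the classes. Of 14 resident macrophage genes 14 were lower, 8 at an unadjusted p under 0.05 and 7 wholly below chow, by a median of −0.32. Their mean was 11.47, 11.21, 11.23 and 11.29 in chow and 10.90, 10.74, 10.996 and 11.15 on the high-fat diet. Gas6, a ligand of the TAM receptors used in the uptake of dying cells, read 12.59, 12.89, 12.64 and 12.80 in chow and 11.83, 11.97, 12.17 and 11.67, a 1.77-fold lower signal (−0.82 ± 0.11, adjusted p = 0.132), while its other probe set differed by −0.08. Lyve1, the hyaluronan receptor of perivascular macrophages and lymphatic vessels, read 11.46 to 11.63 in chow and 10.34, 10.60, 10.75 and 11.41. C1qa and C1qc, chains of the first complement component made by macrophages, read 12.07 to 12.45 and 11.75 to 12.04 in chow against 11.47 to 12.01 and 11.06 to 11.58. The median was −0.20 without chow array 1, the highest chow array. Without 14-day array 2, 2 genes of this list were called lower.

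General macrophage genes were lower in 12 of 14 cases, with a median of −0.18, or −0.09 without 14-day array 1, and 4 wholly below chow. Cd14, the lipopolysaccharide co-receptor, read 10.88, 11.01, 10.96 and 10.75 in chow and 10.36, 10.03, 10.37 and 10.14, a 1.60-fold lower signal (−0.68 ± 0.09, adjusted p = 0.132). Lyz2, myeloid lysozyme, read 13.24 to 13.52 in chow and 12.88 to 13.11 in the high-fat arrays. Adgre1, a surface protein of macrophages, differed by −0.12 ± 0.10 (adjusted p = 0.548) with overlapping groups. Lgals3, galectin 3, went the other way, at 12.07 to 12.27 in chow and 12.64, 12.80, 12.18 and 12.88, with 14-day array 2 alone inside chow. Lipid-handling macrophage genes had a median of 0.02, with 7 of 10 higher, and −0.01 without 5-day array 4.

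Ccl2, Tnf and Nos2, inflammatory genes on the short fixed list, had small differences. Ccl2, the chemokine that attracts monocytes, differed by −0.19 ± 0.15, Tnf by −0.07 ± 0.09 and Nos2, the inducible nitric oxide synthase, by 0.05 ± 0.09, all with overlapping groups. The signs of Tnf and Nos2 turned when 5-day array 4 and chow array 3, respectively, were left out. Of 19 chemokine and cytokine genes 17 were lower, 8 at an unadjusted p under 0.05 and 3 wholly below chow, with a median of −0.19. Those of smallest p were Cxcl16, Ccl6, Ccl8 and Cxcl10. They differed by −0.27, −0.33, −0.48 and −0.35 (limma adjusted p from 0.194 to 0.213).

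Of 8 tested complement genes other than C1q, 6 were lower and 2 higher. All 6 lower genes lay wholly below chow, against 2.6% of all genes tested. The median was −0.39. C1ra, the protease of the first complement component, read 11.96, 12.10, 12.01 and 12.07 in chow and 11.35, 11.67, 11.59 and 11.29 on the high-fat diet (−0.56 ± 0.09, adjusted p = 0.132). Serping1, the C1 inhibitor, read 13.31, 13.51, 13.39 and 13.57 in chow against 13.03, 13.06, 13.00 and 12.82 (−0.47 ± 0.07, adjusted p = 0.132). Cfp, properdin, stabilises the alternative pathway convertase and stood at 10.42 to 10.77 and 9.94 to 10.27, and C3ar1, the receptor for the C3a fragment, at 9.61 to 9.86 and 9.21 to 9.53. Other probe sets of Cfp and C3ar1 differed by as little as −0.12 and −0.11. Leave-one-out medians ran from −0.41 to −0.34. The median was −0.32 with the liver covariate and −0.44 in the arrays left out. There the list mean was 9.93 in 14-day array 4 and 10.64 to 10.77 in the 5-day arrays, against 10.91 to 11.04 in chow. Lower signals in the arrays left out were not particular to this list, since adipocyte identity genes had a median of −0.13 there. Without 14-day array 2, 4 genes of the list were called lower.

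**Figure D5:**
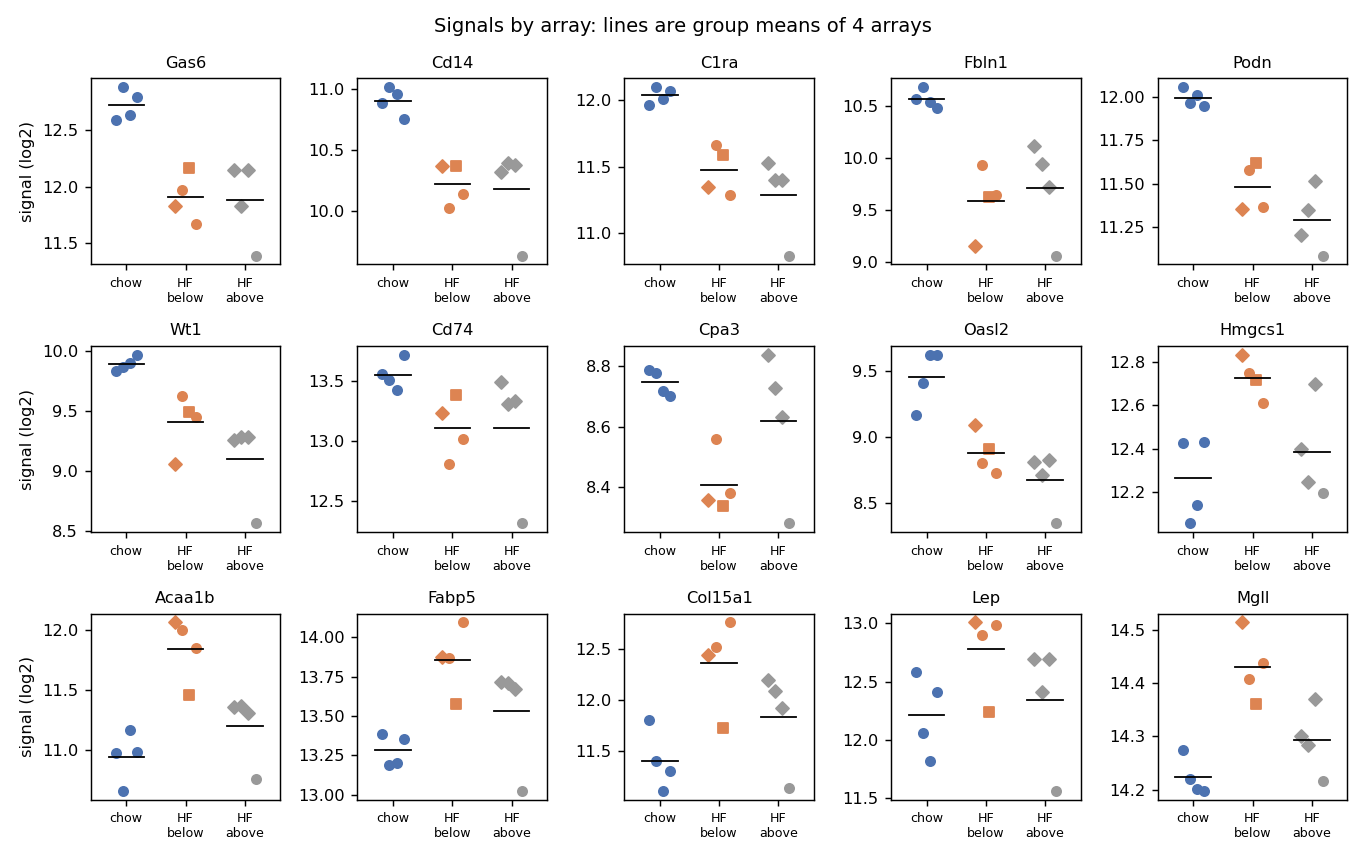
Signal (log2) of 15 genes by array in chow, in the high-fat arrays kept (HF below) and in those left out (HF above); diamonds are 5-day arrays, circles the other arrays, squares 14-day array 2, and lines group means of 4 arrays. For Gas6, Cd14, C1ra, Fbln1, Podn, Wt1, Cd74, Cpa3 and Oasl2 every kept high-fat array lies below chow; for Hmgcs1, Acaa1b, Fabp5 and Mgll every one lies above; and for Col15a1 and Lep only the square lies inside the chow range.

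Antigen presentation by MHC class II was lower in 7 of 7 tested genes, 5 at an unadjusted p under 0.05 and 4 wholly below chow, with a median of −0.41. Cd74, the invariant chain, read 13.55, 13.50, 13.42 and 13.72 in chow and 13.23, 12.80, 13.38 and 13.01 in the high-fat arrays (−0.44 ± 0.12, adjusted p = 0.198). H2-Ab1 and H2-Eb1, the beta chains of the class II molecules, differed by −0.45 ± 0.13 and −0.41 ± 0.11. H2-DMa, which loads peptide on these molecules, differed by −0.35 ± 0.08, and by −0.08 on its other probe set. In each of these genes 14-day array 2 stood nearest to chow, and without it the median was −0.49 and 5 genes were called lower. Cd209a, a lectin of dendritic cells, read 8.65 to 8.82 in chow and 8.37 to 8.47. MHC class I loading genes and immunoproteasome subunits were lower in 10 of 12 cases by a median of −0.12, or −0.06 without 14-day array 3.

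Mast cell markers were lower in 6 of 6 cases by a median of −0.36, with 5 at an unadjusted p under 0.05 and 3 wholly below chow. Mcpt4, a mast cell chymase, read 8.44, 8.38, 8.23 and 8.31 in chow and 7.89, 8.07, 7.89 and 7.97 (−0.39 ± 0.07, adjusted p = 0.175). Cpa3, mast cell carboxypeptidase, read 8.79, 8.78, 8.72 and 8.70 against 8.36, 8.56, 8.34 and 8.38, and Cma1, another chymase, 9.06 to 9.27 against 8.43 to 8.89. These signals lie not far above the limit of 7.64 for testing. In these 3 genes the high-fat array nearest to chow was 14-day array 1. With 14-day array 2 left out, 3 genes were called lower. In the arrays left out Cpa3 stood at 8.28 to 8.84, so that 5-day arrays 1 and 2 reached chow values.

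Interferon response genes were lower in 22 of 24 cases by a median of −0.24, with 7 at an unadjusted p under 0.05 and 2 wholly below chow. The list mean was 9.35, 9.33, 9.75 and 9.78 in chow and 9.58, 9.20, 9.27 and 9.20 in the high-fat arrays, so chow arrays 3 and 4 were high and 5-day array 4 stood above chow arrays 1 and 2. Many genes induced by interferon carry the interferon-stimulated response element in their promoters. Oasl2, an antiviral oligoadenylate synthetase-like protein, read 9.17, 9.41, 9.63 and 9.62 in chow and 9.10, 8.80, 8.91 and 8.72 (−0.58 ± 0.12, adjusted p = 0.194). Zbp1, a sensor of Z-form nucleic acid, read 8.21 to 8.43 against 8.02 to 8.15. Irf9 read 9.36 to 9.83 in chow and 9.08 to 9.57, and Stat2 8.64 to 8.86 and 8.05 to 8.71, both with overlap. In the arrays left out Irf9 was instead higher, at 9.79 to 10.56, and with all 8 high-fat arrays its difference was 0.01. Without chow array 4 the list's median was −0.16, and with the liver covariate −0.40.

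The core of the response element, GAAANNGAA on either strand, was found in 12 of the 17 interferon genes that matched a RefSeq promoter window of 300 bases (250 before to 50 after the start, GRCm38.p6), against 9.76% of 27025 genes. Genes of this list are known for that element, so its presence describes the list and not its difference. Oasl2 and Zbp1, the genes of the list wholly below chow, were not among the 12, and genes without a matched window were not searched. Differences of the 12 ran from −0.58 (Igtp) to −0.05 (Ddx58). A link between the element and the differences was not tested. The windows of the 3 genes of smallest p that hold it are shown, all 3 with groups that overlap. They run 5′ to 3′ on the gene's strand with the matches in capitals. The genes are Stat2 (chr10:128270248-128270547, plus strand), Igtp (chr11:58199306-58199605, plus strand) and Irgm1 (chr11:48871371-48871670, minus strand), where 2 matches overlap.
Stat2: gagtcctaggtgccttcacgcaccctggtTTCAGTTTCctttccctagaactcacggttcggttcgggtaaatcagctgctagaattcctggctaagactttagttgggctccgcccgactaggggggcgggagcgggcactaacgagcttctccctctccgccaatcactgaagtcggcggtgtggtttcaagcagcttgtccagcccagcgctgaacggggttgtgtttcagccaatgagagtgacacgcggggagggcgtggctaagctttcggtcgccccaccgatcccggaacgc
Igtp: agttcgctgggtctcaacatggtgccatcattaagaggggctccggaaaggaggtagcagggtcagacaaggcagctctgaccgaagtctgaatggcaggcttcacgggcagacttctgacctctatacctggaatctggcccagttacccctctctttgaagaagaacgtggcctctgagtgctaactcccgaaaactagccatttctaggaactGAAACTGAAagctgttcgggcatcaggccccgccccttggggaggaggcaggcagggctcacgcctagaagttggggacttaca
Irgm1: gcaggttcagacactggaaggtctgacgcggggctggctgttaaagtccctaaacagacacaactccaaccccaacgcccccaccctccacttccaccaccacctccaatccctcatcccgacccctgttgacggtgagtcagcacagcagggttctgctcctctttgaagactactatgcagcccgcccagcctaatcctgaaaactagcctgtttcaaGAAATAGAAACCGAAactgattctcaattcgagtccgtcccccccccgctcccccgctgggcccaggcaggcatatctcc
Igtp and Irgm1 are interferon-induced GTPases, named here after their values were seen. Igtp read 10.09, 10.37, 11.11 and 11.03 in chow and 10.09, 10.14, 10.18 and 9.86 in the high-fat arrays (−0.58 ± 0.22, adjusted p = 0.24), and Irgm1 9.89, 9.92, 10.40 and 10.52 against 9.91, 9.73, 9.84 and 9.70. In both genes the high chow arrays were 3 and 4.

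For the cholesterol list the core of the sterol response element, CACCCCAC on either strand, was found in the window of 1 of 16 matched genes, against 3.3% of 27025 genes. That gene was Hmgcs1 (chr13:119690101-119690400, plus strand, GRCm38.p6, RefSeq), whose window is shown with the match in capitals because its signals were among those wholly above chow.
Hmgcs1: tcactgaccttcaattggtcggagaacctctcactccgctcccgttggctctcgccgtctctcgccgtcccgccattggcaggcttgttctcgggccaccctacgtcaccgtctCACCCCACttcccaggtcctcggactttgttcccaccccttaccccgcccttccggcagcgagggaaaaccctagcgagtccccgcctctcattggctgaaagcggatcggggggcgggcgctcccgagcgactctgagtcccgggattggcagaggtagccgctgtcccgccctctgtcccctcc
The search asked for these exact letters only, and other forms of the element were not searched.

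Glycolysis genes were higher in 9 of 11 cases by a median of 0.15, with 3 at an unadjusted p under 0.05. Tpi1, triosephosphate isomerase, read 13.07, 13.00, 13.07 and 12.92 in chow and 13.53, 13.43, 12.99 and 13.63 in the high-fat arrays (0.38 ± 0.12, adjusted p = 0.216), and Hk2, hexokinase 2, lay wholly above chow at 12.11 to 12.19 against 11.88 to 12.06. Dendritic cell genes were lower in 4 of 5 cases by a median of −0.20, with 3 wholly below chow. Toll-like receptor signalling genes had a median of −0.07, with 8 of 13 lower, or −0.11 without 14-day array 2; of the 4 wholly below chow 1 was Cd14, and Tlr2, a receptor for bacterial lipoproteins, read 8.36 to 8.80 in chow and 8.05 to 8.30.

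For other cell types and tissues, skeletal muscle markers were lower in 13 of 13 cases by a median of −0.72, which became 0.29 without chow array 3, and liver markers were higher in 12 of 12 by 1.83. Red cell genes were lower in 2 of 2 by −0.40, and −0.24 without chow array 1. Smooth muscle genes had a median of −0.14, or −0.30 without 14-day array 2 and near 0 (0.004) without 14-day array 1. Endothelial genes had a median of 0.11, which turned to −0.12 without 5-day array 4. Neutrophil, T and NK cell, B cell, pancreas and testis medians were −0.10, −0.05, −0.08, −0.02 and −0.02, over 5, 7, 2, 3 and 4 tested genes.

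Constitutive proteasome genes were higher in 16 of 19 cases by 0.09, and 0.03 without 14-day array 3. Branched-chain amino acid breakdown and hypoxia response genes both had a median of 0.05, which were 0.02 and −0.03 at their lowest as single arrays were dropped (5-day array 4 and chow array 1). Thermogenic adipocyte, glucocorticoid, immediate early, heat shock, unfolded protein response and clock output medians were −0.05, −0.01, −0.06, −0.03, −0.01 and −0.07, and each of these turned sign when 1 array was dropped. Core clock genes had a median of −0.01, with 5 of 10 higher. Clock itself read 9.68 to 9.86 in chow and 9.90 to 10.27 in the high-fat arrays, with probe sets from 0.04 to 0.30. Per2, of the same list, was lower by −0.20 ± 0.08 with overlapping groups. Hlf, a clock output factor, lay below chow at 9.73 to 10.15 against 10.26 to 10.33. Cell cycle and replication genes had a median of 0.08, and Cks2, a cyclin-dependent kinase subunit, read 7.94, 8.02, 7.86 and 8.13 in chow and 9.27, 8.58, 8.18 and 8.73. Degs1, the desaturase that makes ceramide, stood at 12.39 to 12.57 and 12.59 to 13.06, within a sphingolipid list whose median was 0.02. Hif1a, the hypoxia-inducible factor, differed by 0.17 ± 0.06 with probe sets that disagreed in sign (−0.28 to 0.29), and Slc25a5, an adenine nucleotide translocase, by 0.06 ± 0.06.

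Among the 10 genes of smallest p in each direction were several outside these lists. Trub2, a mitochondrial pseudouridine synthase, had the smallest p of all, with 9.19, 9.38, 9.17 and 9.33 in chow and 9.83, 9.88, 9.84 and 10.02 in the high-fat arrays (0.62 ± 0.07, adjusted p = 0.132), while its probe sets ran from 0.15 to 0.62. The arrays left out stood at 9.20 to 9.59. Here 14-day array 2 did not stand apart from the other high-fat arrays. Sesn3, a stress-induced sestrin, read 9.99 to 10.03 in chow and 10.72, 10.46, 10.37 and 10.45 (0.48 ± 0.08, adjusted p = 0.132), against 9.96 to 10.44 in the arrays left out. Rnf11, a ubiquitin ligase, read 13.07 to 13.16 and 13.33 to 13.50, and Polr1e, a subunit of RNA polymerase I, 8.05 to 8.10 and 8.29 to 8.47. The other Polr1e probe set differed by 0.127, against 0.325 for the one used. Ighm, the immunoglobulin mu chain of B cells, read 12.13 to 12.57 in chow and 12.86, 13.51, 13.53 and 13.42, but its probe sets ran from −0.01 to 0.95, and the arrays left out stood at 11.35 to 12.97. Fhl1, a LIM protein, and Palld, the actin-bundling palladin, were higher by 0.46 ± 0.07 and 0.65 ± 0.10, each with another probe set that was lower (−0.03 and −0.15). Lrrc17, a secreted leucine-rich repeat protein, and Rcn3, an endoplasmic reticulum calcium-binding protein, were lower, at 8.53 to 8.81 against 9.15 to 9.33 and at 9.27 to 9.49 against 9.79 to 10.08; another Lrrc17 probe set differed by 0.08. Gsdme, a gasdermin, read 9.94 to 10.17 in chow and 8.87 to 9.51 in the high-fat arrays (−0.84 ± 0.13), and another of its probe sets differed by 0.71.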

How the data were processed

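The authors deposited one table of log2 probe set values for 12 Affymetrix arrays; the summarisation, normalization and genome build are not given in the sources used here. Array medians lay between 8.09 and 8.14, and all columns were mapped (0 unused). Of 45098 probe sets, 34945 carried 1 gene symbol in GEO's platform annotation, 932 several and 9160 none. The probe set of highest mean over all 12 arrays stood for each of 18193 genes, and genes under the 40th percentile (7.64) were left out. The 8 arrays were fitted in limma 3.58.1 (R 4.3.3; lmFit, eBayes with trend), two-sided, with Benjamini-Hochberg adjustment over 13312 genes. The fit was also run on simulated data in which deviations from group means were shuffled gene by gene. Deviations shared across an array were thus not simulated, and how the fit handles them was not tested. Named genes are the 10 of smallest p in each direction, up to 4 of smallest p in each of 47 lists and a short fixed list of adipose genes; others are marked as chosen after their values were seen. The arrays, lists and tests were chosen with earlier results of these data known. Of the list entries 576 were tested, 59 fell under the limit and 68 had no probe set of their own. Each gene's alternatives were other scalings, filters, probe set rules, covariates, array sets and fits. With 4 arrays a group, the number of arrays limits the precision, and the median SE of a difference was 0.08.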

Additional observations from a re-analysis of the deposited data

Results flagged for a closer look

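In groups of 4 arrays, 12 of 234 group values had 1 array far from the other 3, a rate of about 1 in 20. In chow these were Lcn5 in array 3 (8.78, others 6.08 to 6.36), Fmod in array 2 (11.47, others 11.10 to 11.16), C1qc in array 1 (12.04, others 11.75 to 11.77), Osr1 in array 1 (10.48, others 10.77 to 10.83), Dpp4 in array 2 (10.10, others 9.85 to 9.87), Slc25a5 in array 1 (13.66, others 13.55 to 13.57), Col4a1 in array 3 (13.63, others 13.78), the skeletal muscle list mean in array 3 (12.58, others 8.25 to 8.48) and the testis list mean in array 4 (7.67, others 7.86 to 7.89). In the high-fat arrays kept, 14-day array 2 stood below the others for Cpt2 (12.59, others 12.74 to 12.77), Npr3 (13.54, others 13.99 to 14.04) and Lep (12.23, others 12.90 to 13.01). The groups share the same arrays, so the rate cannot show whether chance accounts for these flags, and their causes were not tested.

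In the 4 high-fat arrays outside the comparison, the lowest Adam7 value was 13.06, against at most 8.37 in chow, and the lowest Spink8 value was 14.28, against at most 8.38.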

How the results depend on the processing

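The count of 0 called genes held under the other scalings, filters, probe set rules, covariates and array sets that were run. It changed with array weights, to 1906, and as single arrays were left out it ran from 0 to 1638, the latter without 14-day array 2. The replicate numbers of the labels gave no general pairing: same-numbered high-fat and chow arrays correlated at 0.01, 0.61, −0.22 and 0.08. Only for number 2, that of 14-day array 2, was the same-numbered chow array the best match. With the number as a replicate block 0 genes were called and 2426 stood at an unadjusted p under 0.05, against 2276. Of 2078 comparisons of a named gene with an alternative, 1928 kept direction and side of the threshold, 141 passed it only in the alternative and 9 turned sign. These were Irf9 (0.007) and Fads1 (0.168) with all 8 high-fat arrays, Adipoq with median centring (0.017), array weights (0.007) and without 5-day array 4 (0.003; leave-one-out from −0.019), Tnf without 5-day array 4 (0.002; leave-one-out from −0.113) and Nos2 without chow array 3 (−0.006; leave-one-out to 0.115); leaving out 5-day array 4 is the same as using only the 14-day arrays. The causes were not tested. Median centring moved the median of all genes from 0.02 to 0.05 and the share of genes on the higher side from 57.6% to 64.9%, and quantile normalization moved them to 0.004 and 51.3%. Signals close to the lower limit, such as the mast cell genes, and those near the top, such as Scd1 and Adipoq, are measured least well.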
